A study of Canis lupus familiaris with 30 samples.

Results

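The genes described here code for receptors of basophils and eosinophils: the IgE receptor chains MS4A2 and FCER1A, the eotaxin receptor CCR3 and the prostaglandin D2 receptor PTGDR2. They were taken as all non-control probes whose transcript belongs to 1 of these 4 genes, among 43603 probes, which gave 6 probes: 2 for MS4A2 (A_11_P0000019890 and the dimmer A_11_P050821), 2 for FCER1A (A_11_P055911 and the dimmer A_11_P0000024047), and 1 each for CCR3 (A_11_P0000020112) and PTGDR2 (A_11_P050376). All 6 were bright enough to be tested, among 31691 tested probes. The genes were chosen by earlier results of these data, the measured diet differences among them, so those differences are given as values with a standard error (SE) and no test. Their changes over time and the change of the diet difference since week 0 were tested, but since earlier results were known when the genes were picked, these p-values are not independent evidence.

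RNA came from peripheral blood mononuclear cells (PBMC), the white cells recovered from blood on a density medium, of adult dogs. For 9 weeks 7 dogs ate only raw red meat, a diet rich in protein and fat, and 8 dogs ate only a kibble that contains carbohydrate. Blood was taken at weeks 0, 3, 6 and 9, and the labels state 6 biological replicates. The 8 groups are thus meat and kibble at each of weeks 0, 3, 6 and 9, and what the dogs ate before week 0 is not given.

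The samples were hybridised in pairs on 30 arrays, 1 labelled with Cy3 and the other with Cy5, so that each array gives a ratio. Of these, 14 arrays compared the diets (3 arrays each for weeks 0 and 3, and 4 arrays each for weeks 6 and 9), and 16 compared weeks on the same diet (on each diet 4 arrays for weeks 9 and 0 and 4 arrays for weeks 6 and 3). Each group was read in 7 or 8 channels. With 6 biological replicates stated, a dog may have been read more than once within a group, and the labels do not tie dogs to arrays, so errors and p-values describe the spread between arrays. Weeks 0 and 9 were never hybridised with weeks 3 and 6, and every week had its own slide for the diet comparison, so a level at 1 week pair cannot be set against that at the other apart from the slide. An array is named here by its Cy3 and Cy5 groups.

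The arrays had 20085 to 42703 probes well above background in Cy3 and 19416 to 43411 in Cy5, and precision is limited by how many arrays there are. A pair of arrays stood apart. Array kibble 0/kibble 9 replicate 1 had a median local background of 210 in Cy3 and 404 in Cy5, against 17.2 to 25.5 and 52.0 to 62.5 on the other arrays, and it had the fewest probes well above background. Array meat 9/meat 0 replicate 1 had the most. Markers of monocytes (4 of 7 measured) and of cytotoxic T and NK cells (6 of 8) were well above background in all 60 channels, as were those of platelets (5 of 7), and 5 of the 6 measured neutrophil markers were too.

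On basophils and mast cells the high-affinity IgE receptor is built from an alpha chain (FCER1A), which binds IgE, a beta chain (MS4A2), which amplifies the signal, and gamma chains (FCER1G), which carry it into the cell. CCR3 draws eosinophils and basophils towards eotaxins and related chemokines, and PTGDR2, also called CRTH2, does so towards prostaglandin D2. In human blood, basophils settle with the mononuclear cells on a density medium, whereas most eosinophils settle with the granulocytes. FCER1A in humans is also made by dendritic cells, and CCR3 and PTGDR2 by type 2 helper T cells.

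MS4A2 was lower in the meat group in every week measured, by about the same amount at week 0 as later. Intensities here are normalised fluorescence in arbitrary units. The brighter probe read 494 to 1548 with a median of 584 in the 7 meat channels at week 0, against 941 to 2059 with a median of 1508 in the 7 kibble channels. At week 3 it read 503 to 829 (median 699) in meat channels and 1226 to 2797 (median 1549) in kibble channels. At week 6 the meat channels gave 465 to 1074 (median 759) and the kibble channels 1143 to 2142 (median 1623). At week 9 they gave 679 to 1430 (median 753) on meat and 1290 to 2293 (median 1856) on kibble. The groups did not overlap at weeks 3 and 6. At week 0, 2 of 7 meat channels lay above the lowest kibble channel, and at week 9, 1 of 8 did. Channels of a group may share a dog, and the gene was chosen with its diet difference known, so the overlap is a description. The share of all probes without overlap is not given here.

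**Figure D1:**
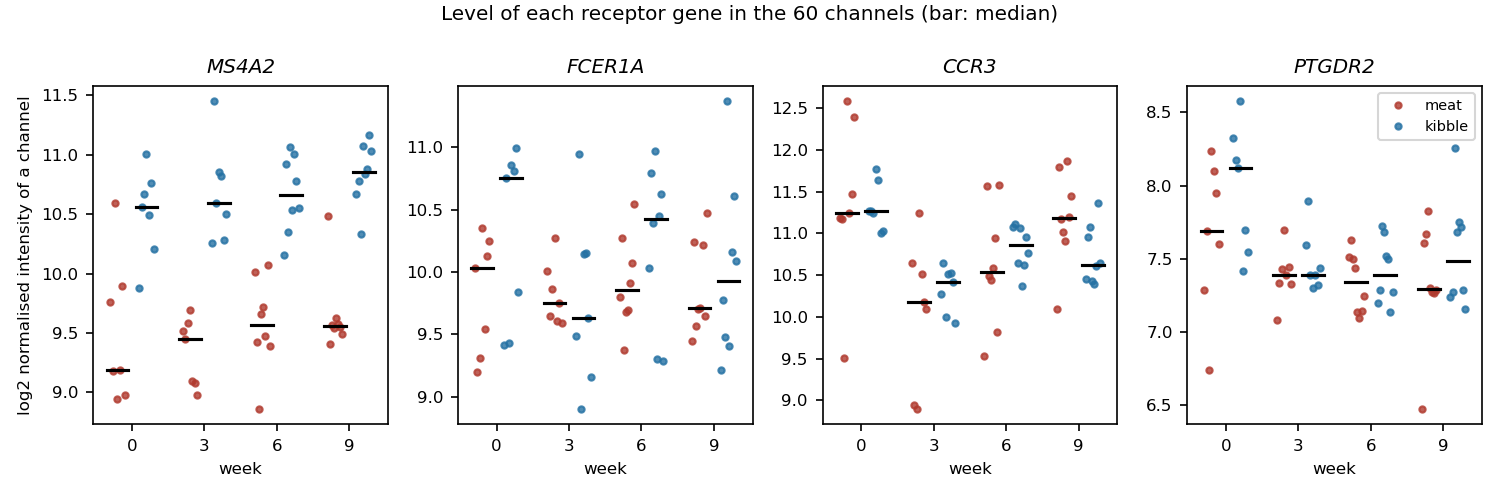
Level of each receptor gene (brighter probe, log2 normalised intensity) in every channel at weeks 0, 3, 6 and 9, meat (red, left) and kibble (blue, right), with a bar at the median. MS4A2 sits lower on meat at all 4 weeks, CCR3 is widely spread on meat at all 4 weeks, and FCER1A is more spread on kibble.

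The ratios on the diet arrays gave the same picture for MS4A2. Corrected for dye, the log2 ratio of meat over kibble was -1.03, -1.49 and -1.05 on the 3 arrays of week 0, and -1.82, -0.80 and -1.08 at week 3. It was -1.09, -0.06, -1.10 and -1.51 on the 4 arrays of week 6, and -1.56, -1.49, -1.09 and -1.26 at week 9. All 14 ratios were below 0, and 1 array, kibble 6/meat 6 replicate 1, was close to 0. The fitted differences were -1.17 ± 0.18, -1.18 ± 0.18, -0.98 ± 0.17 and -1.36 ± 0.17 in weeks 0, 3, 6 and 9 (SE, 30 arrays in the fit). Over weeks 3, 6 and 9 the mean was -1.17 ± 0.11, or 2.26-fold lower on meat. Without kibble 6/meat 6 replicate 1 the week 6 value was -1.27 ± 0.16 and the mean -1.31 ± 0.10.

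The dimmer MS4A2 probe, which is spotted 5 times per array, was lower on meat too. It read 183 to 478 with a median of 320 over the 30 meat channels and 371 to 1039 with a median of 644 over the 30 kibble channels. The groups did not overlap at weeks 3 and 9, again only a description. Its fitted log2 differences were -1.08 ± 0.18, -0.97 ± 0.18, -0.80 ± 0.17 and -1.12 ± 0.17 in weeks 0, 3, 6 and 9. Its ratio on kibble 6/meat 6 replicate 1 was -0.01, so both probes gave that array a value near 0. The log2 ratios of the 5 spots had a standard deviation (SD) of 0.01 to 0.12 within an array, with a median of 0.05, against a residual SD of 0.39 between arrays. Over the 14 diet arrays the 2 probes correlated at r = 0.95, and over the 16 time arrays at 0.95. They share the gene and the RNA of each array.

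**Figure D2:**
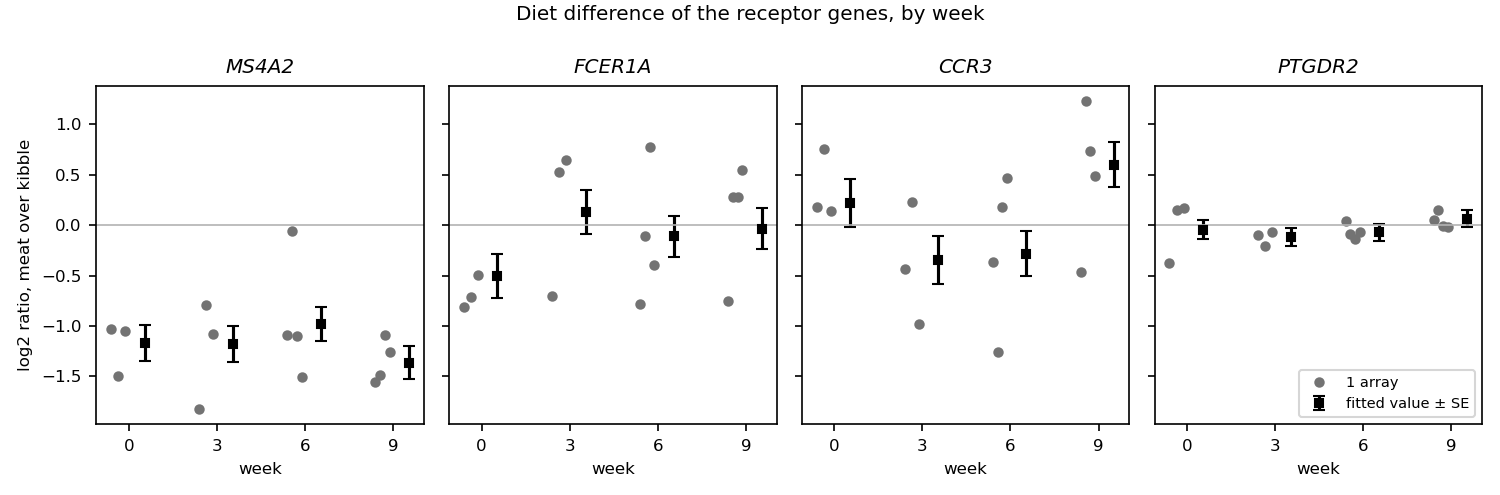
Log2 ratio of meat over kibble on each diet array (grey points, corrected for dye) and the fitted value ± SE (black squares) at weeks 0, 3, 6 and 9. MS4A2 is below 0 on all 14 arrays, FCER1A is below 0 on all 3 arrays of week 0 and scattered about 0 later, and PTGDR2 stays between -0.37 and 0.17.

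Whether the MS4A2 difference moved after week 0 was tested as the diet difference of a later week minus that at week 0. Over weeks 3, 6 and 9 this was -0.001 ± 0.20 (95% interval -0.40 to 0.40, limma adjusted p = 0.999). At week 9 it was -0.19 ± 0.20 (95% interval -0.61 to 0.23, limma adjusted p = 0.834). In these 2 comparisons limma called 0 of the 6 receptor probes and 0 (0%) of the 31691 tested probes. At an unadjusted p under 0.05, 1 of the 6 passed over weeks 3, 6 and 9 and 0 of the 6 at week 9, against 3078 and 2720 of all probes. A change of MS4A2 within the interval could not be seen with this number of arrays.

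Within a diet, MS4A2 did not pass the test between weeks. The week 9 over week 0 ratios were -0.14, 0.43, 0.35 and -0.38 on the 4 meat arrays and 0.48, 0.55, 0.19 and -0.10 on the 4 kibble arrays. The fitted changes were 0.08 ± 0.17 on meat (limma adjusted p = 0.846) and 0.27 ± 0.17 on kibble (limma adjusted p = 0.307). Between week 3 and week 6 the changes were 0.14 ± 0.17 on meat and -0.06 ± 0.17 on kibble, with limma adjusted p = 0.706 and 0.882.

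FCER1A, the IgE-binding chain of the same receptor, was lower on meat at week 0 and lay near 0 in the later weeks. At week 0 the brighter probe read 587 to 1308 (median 1048) in meat channels and 681 to 2036 (median 1727) in kibble channels. At week 3 it read 772 to 1237 (median 862) on meat and 479 to 1974 (median 792) on kibble, and at week 6 it read 664 to 1491 (median 927) on meat and 624 to 2010 (median 1371) on kibble. At week 9 the meat channels gave 696 to 1421 (median 836) and the kibble channels 594 to 2641 (median 976). The groups overlapped in every week. The 3 ratios of meat over kibble at week 0 were -0.81, -0.71 and -0.49, all below 0. At week 3 they were -0.70, 0.53 and 0.64, at week 6 they were -0.78, -0.11, 0.78 and -0.40, and at week 9 they were -0.75, 0.28, 0.28 and 0.55. After week 0 the arrays thus lay on both sides of 0. The fitted differences were -0.50 ± 0.22, 0.13 ± 0.22, -0.11 ± 0.20 and -0.04 ± 0.20 in weeks 0, 3, 6 and 9, with a mean of -0.005 ± 0.13 over weeks 3, 6 and 9.

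The dimmer FCER1A probe, well above background in 57 of 60 channels, gave -0.33 ± 0.13 at week 0 and -0.06 ± 0.08 over weeks 3, 6 and 9. The ratios of the 2 FCER1A probes correlated at r = 0.94 over the diet arrays and 0.86 over the time arrays. The change of the diet difference since week 0 was 0.50 ± 0.24 for the brighter probe over weeks 3, 6 and 9 (95% interval 0.01 to 0.99), which did not pass (limma adjusted p = 0.504). For the dimmer probe it was 0.27 ± 0.15 (limma adjusted p = 0.578). FCER1A also did not pass between weeks within a diet: the week 9 minus week 0 change was 0.18 ± 0.20 on meat (limma adjusted p = 0.671) and -0.29 ± 0.20 on kibble (limma adjusted p = 0.386).

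Kibble channels were the more scattered ones for FCER1A. The SD of its log2 level was 0.47, 0.25, 0.37 and 0.38 in meat channels at weeks 0, 3, 6 and 9, against 0.71, 0.69, 0.64 and 0.71 in kibble channels. In each week the highest FCER1A value came from a kibble channel, up to 2641 at week 9. The lowest also came from kibble at weeks 3, 6 and 9 and from meat at week 0. Channels of 1 group may share a dog, so these SDs are a description.

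**Figure D3:**
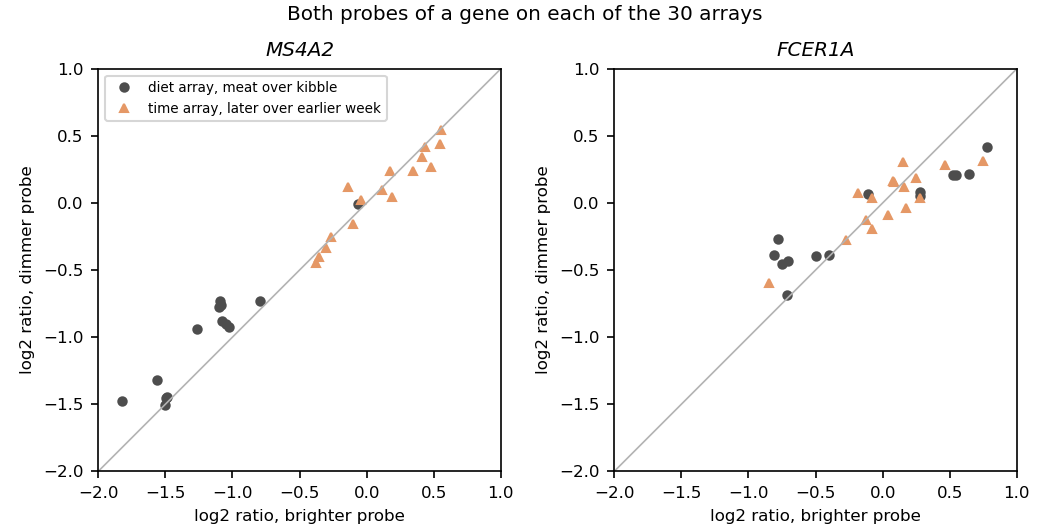
Log2 ratio of the dimmer against the brighter probe of MS4A2 and of FCER1A on each of the 30 arrays (grey circles: diet arrays, meat over kibble, orange triangles: time arrays, later over earlier week), with the line of equal values. The MS4A2 diet arrays lie well below 0 on both probes except 1 near 0, whereas those of FCER1A lie on both sides of 0.

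MS4A2 and FCER1A code for chains of 1 receptor, and the correlation of their ratios depended on the probes. Ratios were first taken as meat over kibble, or later over earlier week. Taken so, the brighter probes correlated at r = 0.28 over the 14 diet arrays and 0.30 over the 16 time arrays. The residuals of the fit correlated at 0.45 over 30 arrays. The dimmer probes correlated at 0.55 over the diet arrays, 0.43 over the time arrays and 0.56 over the residuals. Among 1071 named genes compared with MS4A2 by the correlation of Cy5 over Cy3 ratios over the 30 arrays, FCER1A came in place 136 (r = 0.44, its better probe). The 5 most like MS4A2 were HSPB1, a small heat shock protein (r = 0.89), CAMP, a peptide of neutrophil granules (0.83), SULF2, a sulfatase (0.80), TNFSF13, the B cell factor APRIL (0.79), and VIM, the filament protein vimentin (0.79). As Cy5 over Cy3, another measure than meat over kibble, the correlation for HSPB1 was 0.92 over the diet arrays and 0.59 over the time arrays. For the dimmer FCER1A probe it was 0.50 and 0.39. For CAMP it was 0.88 and 0.14, and for SULF2 0.89 and 0.14, so the likeness of these 2 to MS4A2 rests on the diet arrays. The ranked ratios hold the diet differences, whereas the residuals of the fit hold no group difference. Over the residuals r with MS4A2 was 0.70 for HSPB1, 0.52 for TNFSF13, 0.41 for VIM, 0.31 for CAMP and 0.27 for SULF2. For FCER1A it was 0.55 there with the dimmer probe, above all of these but HSPB1. With the brighter probe it was 0.45, below HSPB1 and TNFSF13. The genes most like FCER1A were MMP9, a gelatinase of neutrophils (0.66), GCKR, a regulator of glucokinase (0.64), HPGD, which inactivates prostaglandins (0.63), UGT2B31, a glucuronosyltransferase (0.58), and SYNJ1, a lipid phosphatase (0.57). All points of such a correlation share arrays and dogs, so no p is given.

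Few other genes of the IgE receptor pathway and of basophils were both named and tested. Only 2175 of 43603 probes carried a gene symbol, so a listed gene that was not tested may still have a probe on the array. Of 21 IgE signalling genes listed, 4 were tested. Over weeks 3, 6 and 9, when 15.8% of all tested probes passed the test between diets (7.37% higher and 8.39% lower on meat), 1 of the 4 passed. This was FCER1G, the gamma chain, at -0.26 ± 0.09 (limma adjusted p = 0.0479), against -0.03 ± 0.15 at week 0 (limma adjusted p = 0.991). PRKCD and MAPK3, kinases further down the pathway, gave -0.12 ± 0.08 and -0.06 ± 0.09. At week 0, when 0.312% of all probes passed, 0 of the 4 passed with limma. The change of the diet difference since week 0 passed for 0 of the 4, and for 0 (0%) of all tested probes. A change of FCER1G since week 0 is thus not shown.

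Of 23 basophil and mast cell genes, 4 were tested, and 2 of them passed over weeks 3, 6 and 9, in opposite directions. CMA1, the protease chymase, was higher on meat by 0.27 ± 0.07 (limma adjusted p = 0.0131) and MITF, a transcription factor of mast cells that other blood cells also express, was lower at -0.38 ± 0.08 (limma adjusted p = 0.00226). At week 0 they gave 0.22 ± 0.12 and -0.43 ± 0.14, neither past the test. KIT, the stem cell factor receptor, gave -0.01 ± 0.04 and the cytokine gene IL4, well above background in only 8 of 60 channels, -0.07 ± 0.03. The other listed genes of basophils and mast cells were not analysed here.

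Many markers of other blood cells were lower on meat, as MS4A2 was, while CD28 of T cells was higher (0.25 ± 0.05). Over weeks 3, 6 and 9 all 5 platelet markers were lower on meat, as were all 4 monocyte markers, 3 of 6 neutrophil markers and 5 of 6 cytotoxic markers, where 8.39% of all tested probes were called lower. With median centring in place of loess, the list genes called lower, markers and pathway genes together, numbered 14 in place of 22. The summed level of the platelet markers ran from 8354 to 33510.5 with a median of 16176 in 30 meat channels, and from 13743 to 74842 with a median of 27149 in 30 kibble channels. For monocytes the sums were 14086 to 37475 (median 23091) on meat and 23218 to 50026 (median 34658) on kibble. For neutrophils they were 11188 to 126199 (median 34820) on meat and 8223 to 160256 (median 55982) on kibble. At week 0 the median differences were -0.61 for platelet, -0.46 for monocyte and -0.36 for neutrophil markers, the cytotoxic markers had a median of -0.09, and 1 marker of these 4 lists passed, ELANE, a neutrophil protease, at -0.31 ± 0.07 (limma adjusted p = 0.0463). The part of these cells in the MS4A2 difference was not tested. In bulk RNA fewer cells of a type and less RNA per cell cannot be told apart.

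CCR3 did not keep 1 direction between the diets. At week 0 it read 725 to 6131 (median 2418) in meat channels and 2052 to 3487 (median 2461) in kibble channels. At week 3 it read 478 to 2431 (median 1159) on meat and 974 to 1601 (median 1372) on kibble. The week 6 channels gave 742 to 3072 (median 1487) on meat and 1319 to 2213 (median 1859) on kibble. Those of week 9 gave 1096 to 3750 (median 2321) on meat and 1349 to 2647 (median 1581) on kibble. In each week the kibble range lay within the meat range. The SD of the log2 level was 1.01, 0.87, 0.74 and 0.56 in meat channels at weeks 0, 3, 6 and 9, against 0.29, 0.27, 0.27 and 0.36 in kibble channels, the reverse of FCER1A. Again, channels of a group may share a dog.

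The ratios of CCR3, meat over kibble, were 0.18, 0.75 and 0.14 at week 0 and -0.44, 0.22 and -0.98 at week 3. They were -0.37, -1.26, 0.18 and 0.47 at week 6 and -0.46, 1.23, 0.74 and 0.49 at week 9. Only at week 0 did all arrays agree in sign. The fitted differences were 0.22 ± 0.24, -0.34 ± 0.24, -0.28 ± 0.22 and 0.60 ± 0.22 in weeks 0, 3, 6 and 9, and over weeks 3, 6 and 9 they averaged -0.01 ± 0.15. The week 6 value rested on array kibble 6/meat 6 replicate 1 (ratio -1.26), without which it was 0.03 ± 0.23. The difference at week 9 minus that at week 0 was 0.38 ± 0.27 (95% interval -0.18 to 0.94, limma adjusted p = 0.729). The residual SD of CCR3 between arrays, 0.52, was the largest of the 6 probes.

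In kibble-fed dogs CCR3 fell between week 0 and week 9. The ratios of week 9 over week 0 were -0.19, -0.84, -0.85 and -1.16, all below 0, and the fitted change was -0.66 ± 0.22 (95% interval -1.11 to -0.21, 1.58-fold lower at week 9, limma adjusted p = 0.0425). In meat-fed dogs the ratios were 0.60, -0.79, -0.07 and -0.46, on both sides of 0, and the change was -0.28 ± 0.22 (limma adjusted p = 0.507). The CCR3 changes on the 2 diets are not shown to differ, since their difference, given above, did not pass. CCR3 and PTGDR2 were the 2 of 6 receptor probes called on kibble, both lower, where 9.35% of all tested probes were called lower and 15.1% in either direction. On meat 1 of 6, PTGDR2, was called lower, where 4.18% of all probes were called lower and 8.25% in either direction.

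The CCR3 call on kibble was close to the threshold. It did not pass with the replicate block (-0.64, limma adjusted p = 0.0746), with a dye term per slide (-0.49, limma adjusted p = 0.297) or without the filter on dim probes (-0.66, limma adjusted p = 0.0551), and median centring gave -1.01 (limma adjusted p = 0.00343). It was lost without kibble 0/kibble 9 replicate 2, 3 or 4 (-0.62, -0.62 and -0.55), without meat 9/meat 0 replicate 2 or 4 (-0.62 and -0.64), without meat 0/kibble 0 replicate 1 or 2 (-0.65 both), without meat 9/kibble 9 replicate 2 (-0.62) and without kibble 9/meat 9 replicate 1 or 2 (-0.64 and -0.67). Without kibble 0/kibble 9 replicate 1, the array with the high background, the change was -0.77 ± 0.24 (limma adjusted p = 0.0319). The time arrays of weeks 0 and 9 lay on slides 1 and 2, each with both diets. Without slide 1 the CCR3 change on kibble was -0.82 ± 0.28 and without slide 2 it was -0.43 ± 0.30, limma adjusted p = 0.0755 and 0.461. Every one of these values was negative.

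**Figure D4:**
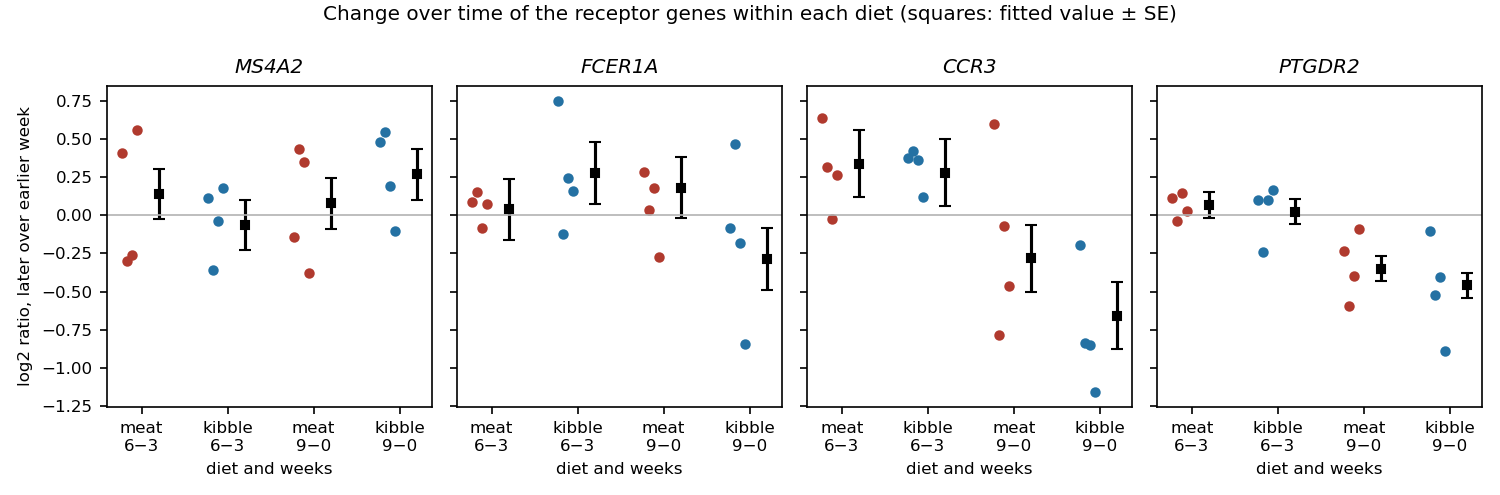
Log2 ratio of the later over the earlier week on each time array, corrected for dye (red: meat, blue: kibble), with the fitted value ± SE beside it (black squares), for weeks 6 and 3 and for weeks 9 and 0. CCR3 is below 0 on all 4 kibble arrays of weeks 9 and 0, and PTGDR2 is below 0 on all 8 arrays of these weeks.

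Between weeks 3 and 6 CCR3 went the other way without passing. Week 6 over week 3 was 0.64, 0.32, -0.03 and 0.26 on the meat arrays and 0.38, 0.42, 0.36 and 0.12 on the kibble arrays. The fitted changes were 0.34 ± 0.22 on meat (limma adjusted p = 0.437) and 0.28 ± 0.22 on kibble (limma adjusted p = 0.541). In these comparisons limma called 0 of the 6 receptor probes, with 0 at an unadjusted p under 0.05, and 2.19% of all probes on meat and 0.104% on kibble.

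The genes whose ratios were most like those of CCR3 over the 30 arrays were UACA, a protein first described as a target of autoantibodies (r = 0.94), EMR4, an adhesion receptor of myeloid cells in mice (0.84), ADORA3, the adenosine A3 receptor (0.81), PON2, a lactonase (0.80), and DBI, an acyl-CoA binding protein (0.77). UACA kept its likeness in the diet arrays (0.95), in the time arrays (0.95) and in the residuals of the fit (0.96), which hold no group difference. Between week 0 and week 9 on kibble UACA gave -0.46 ± 0.18, ADORA3 -0.45 ± 0.16, PON2 -0.38 ± 0.09, EMR4 -0.31 ± 0.16 and DBI -0.16 ± 0.10. They were picked for ratios like those of CCR3 on the same arrays, so these values are a description with no p. PTGDR2 came in place 37 (0.51), FCER1A in place 301 and MS4A2 in place 967 of 1071. As meat over kibble, the CCR3 and MS4A2 ratios of the 14 diet arrays correlated at r = -0.44. The Spearman rank correlation was weaker, at -0.25.

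Of 13 eosinophil genes 3 were tested, and 0 passed between diets at week 0 or over weeks 3, 6 and 9, where 0.312% and 15.8% of all tested probes passed. Between weeks 0 and 9 also 0 passed, where 8.25% of all probes passed on meat and 15.1% on kibble. With 3 genes, 0 is near those shares. ADGRE1, known as an eosinophil receptor in humans, gave -0.20 ± 0.08 over weeks 3, 6 and 9 (limma adjusted p = 0.111), -0.17 ± 0.13 between weeks 0 and 9 on meat and -0.13 ± 0.13 on kibble. The cytokine genes IL5 and CSF2 were well above background in 29 and 20 of 60 channels and gave 0.06 ± 0.03 and -0.03 ± 0.04 over weeks 3, 6 and 9. Of 12 CCR3 ligands and related chemokine genes 7 were tested. CCL5, a CCR3 ligand made mostly by T and NK cells and platelets, was the 1 that passed between diets, at -0.92 ± 0.15 over weeks 3, 6 and 9 (limma adjusted p = 0.000257). The change of the diet difference since week 0 passed for 0 of the 7. CCR1, a receptor for some of the same ligands, gave -0.45 ± 0.15 on meat and -0.41 ± 0.15 on kibble between weeks 0 and 9, limma adjusted p = 0.0548 and 0.0543.

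PTGDR2 was nearly equal in the 2 diets and fell between week 0 and week 9 in both. At week 0 it read 107 to 302 (median 206) in meat channels and 171 to 381 (median 278) in kibble channels, and at week 9 it read 89.0 to 227 (median 157) on meat and 143 to 306 (median 179) on kibble. At weeks 3 and 6 the meat channels spanned 135 to 208 and the kibble channels 140 to 238. The groups overlapped in every week. On the 14 diet arrays the ratio of meat over kibble lay between -0.37 and 0.17. The fitted diet differences were -0.04 ± 0.09, -0.12 ± 0.09, -0.07 ± 0.08 and 0.07 ± 0.08 in weeks 0, 3, 6 and 9.

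Week 9 over week 0 the PTGDR2 ratios were -0.23, -0.60, -0.40 and -0.09 on the meat arrays and -0.10, -0.52, -0.40 and -0.89 on the kibble arrays. All 8 were below 0. The fitted change was -0.35 ± 0.08 on meat (95% interval -0.52 to -0.18, 1.27-fold lower at week 9, limma adjusted p = 0.0113) and -0.46 ± 0.08 on kibble (95% interval -0.63 to -0.29, 1.38-fold lower, limma adjusted p = 0.000567). Week 9 was in Cy3 on the meat arrays and in Cy5 on the kibble arrays, and the dye term of PTGDR2 was 0.03 ± 0.04. Between weeks 3 and 6 the change was 0.07 ± 0.08 on meat and 0.02 ± 0.08 on kibble, with limma adjusted p = 0.717 and 0.918.

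The PTGDR2 change was -0.54 ± 0.08 on kibble without the high-background array kibble 0/kibble 9 replicate 1 (limma adjusted p = 0.000122) and -0.38 ± 0.09 on meat without meat 9/meat 0 replicate 1 (limma adjusted p = 0.0119). Without meat 9/meat 0 replicate 2 the meat value was -0.29 ± 0.09 and no longer passed (limma adjusted p = 0.0787). With slide 1 or slide 2 left out it was -0.36 either way, with limma adjusted p = 0.0651 and 0.0684, and the kibble value was -0.54 and -0.37, both still called. From the 4 arrays of each comparison alone it was -0.36 on meat and -0.45 on kibble, neither past the threshold (limma adjusted p = 0.118 and 0.0667). The authors' deposited ratios gave -0.36 on meat and -0.48 on kibble, and the scanner software's processed signals -0.49 and -0.70.

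The PTGDR2 probe was well above background in 60 of 60 channels, and its mean brightness lay at percentile 58.2 of all probes. On the time arrays its raw signal was 1.48 to 12.2 times the local background, with a median of 5.54. Among the genes whose ratios were most like it were MYL2, a myosin light chain of heart and slow muscle (r = 0.94), CRYBB2, a lens crystallin (0.94), and ADRB1, the beta-1 adrenergic receptor of heart (0.91). These are described by their textbook tissues, and none of the 3 is a marker of blood cells in the lists used here. Their probes were well above background in 41, 45 and 59 of 60 channels. Between week 0 and week 9 MYL2 changed by -1.21 ± 0.23 on meat and -1.49 ± 0.23 on kibble. ADRB1 changed by -0.94 ± 0.22 on meat and -1.20 ± 0.22 on kibble, and CRYBB2 by -0.40 ± 0.11 on meat and -0.57 ± 0.11 on kibble. These genes were picked for ratios like those of PTGDR2 on the same arrays, so their changes are a description and no p is given. On the time arrays PTGDR2 correlated at 0.96 with MYL2 and at 0.72 with CCR3. Over the residuals these were 0.88 and 0.24.

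**Figure D5:**
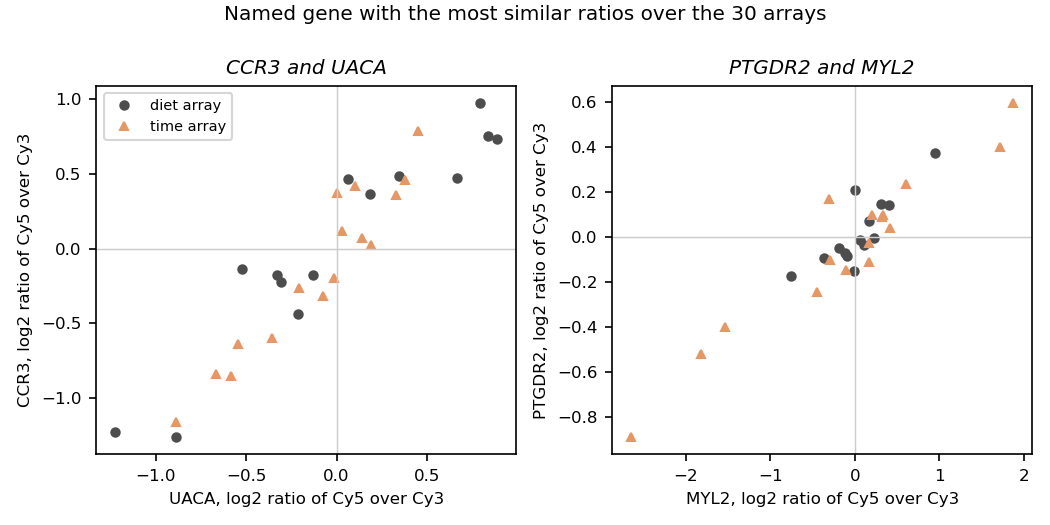
Dye-corrected log2 ratio of Cy5 over Cy3 on each of the 30 arrays for CCR3 against UACA (left) and PTGDR2 against MYL2 (right), with diet arrays as grey circles and time arrays as orange triangles. Over all arrays r is 0.94 for both pairs. Within the diet arrays it is 0.95 for CCR3 and UACA and 0.83 for PTGDR2 and MYL2. The MYL2 ratios span a wider range than those of PTGDR2.

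Of 14 genes for prostaglandin D2 and leukotrienes 6 were tested. PTGDS, a synthase of prostaglandin D2, gave 0.03 ± 0.03 between diets over weeks 3, 6 and 9 and -0.03 ± 0.05 between weeks 0 and 9 on either diet. PTGS1, the cyclooxygenase of platelets, was lower on meat at -1.19 ± 0.19 over weeks 3, 6 and 9 (limma adjusted p = 0.000134). At week 0, 0 of the 6 genes passed between diets, where 0.312% of all tested probes did. The change of the diet difference since week 0 also passed for 0 of the 6, so a change of it is not shown for PTGS1. PTGS1 rose between weeks 0 and 9 by 1.09 ± 0.28 on meat (limma adjusted p = 0.0171) and 1.07 ± 0.28 on kibble (limma adjusted p = 0.0102). The platelet markers GP1BA and SELP rose with it on both diets, by 0.93 ± 0.27 and 1.05 ± 0.25 on meat and by 1.07 ± 0.27 and 1.10 ± 0.25 on kibble. PTGER4, a receptor for prostaglandin E2, fell on kibble between weeks 0 and 9 by 0.29 ± 0.10 on the log2 scale (limma adjusted p = 0.0470). On meat it gave -0.25 ± 0.10 (limma adjusted p = 0.118). Between weeks 3 and 6 PTGER4 rose by 0.51 ± 0.10 on meat (limma adjusted p = 0.0065) and 0.53 ± 0.10 on kibble (limma adjusted p = 0.0424). MITF was the 1 of 4 basophil and mast cell genes that passed between weeks 0 and 9. It rose by 0.57 ± 0.12 on meat (limma adjusted p = 0.00731) and 0.46 ± 0.12 on kibble (limma adjusted p = 0.0130). Of all tested probes, 8.25% passed on meat and 15.1% on kibble in these comparisons. Of the 12 genes listed for type 2 T cells, 4 were tested (IL10, IL2RA, CD40LG and ICOS). Of these, 0 passed between weeks 0 and 9, near those shares. GATA3, IL4R, STAT6 and IL9 of that list were not tested, so the counts do not speak to type 2 cells as such. Over weeks 3, 6 and 9, 15.8% of all tested probes passed between diets. There the helper cell genes CD40LG (0.33 ± 0.09) and ICOS (0.19 ± 0.04) were higher on meat and IL2RA (-0.40 ± 0.09) was lower. The median difference of the 4 genes was 0.08 at week 0 and 0.07 over weeks 3, 6 and 9. The change of their diet difference since week 0 passed for 0 of the 4.

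Markers of other cells also passed the test between weeks 0 and 9. On meat they were GP1BA and SELP of platelets and CTSS of monocytes, which rose, and CD4 of T cells (-0.90 ± 0.27) and SLC4A1 of red cells (-0.36 ± 0.09), which fell. On kibble the platelet markers GP1BA, SELP and CLU and the monocyte marker CTSS rose, and ELANE of neutrophils and SLC4A1 of red cells fell. The summed platelet level at week 9 was 18121 to 29129 (median 24591) on meat and 26629 to 74842 (median 30815) on kibble, against 8749 to 16256 (median 10875) on meat and 13743 to 20148 (median 17592) on kibble at week 0. Their part in the changes of CCR3 and PTGDR2 was not tested.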

How the data were processed

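Each of 30 Agilent 2-colour arrays held 45220 spots, of which 1417 were controls. Per the file headers, the deposited scanner files hold the intensity of each spot on a linear scale from Agilent Feature Extraction 10.10.1.1. The authors also deposited log2 ratios per probe, used as an alternative. These had medians of -0.00634 to 0.00398, correlated with the ratios computed here at r = 0.858 to 0.995 per array, and limma is named in the submitters' processing notes. The plan named mean signals, but the files hold medians, which were used.

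Background was corrected with normexp (offset 50), ratios were normalised by loess within arrays with controls and 979 outlier-flagged spots left out, and spots of a probe were averaged (limma 3.58.1, R 4.3.3). No spot was saturated. The test took the 31691 of 43603 probes that exceeded background clearly in 7 or more of 60 channels. One fit over all arrays held group and dye terms, with Benjamini-Hochberg adjustment over all tested probes at 0.05, two-sided. Levels are channel intensities after Aquantile scaling. The fit recovered known changes in simulated data. Symbols came from transcript accessions through RefSeq, which named 2175 probes.

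The receptor genes and the lists were chosen with earlier results of these data known. Named genes were the 4 receptors, each led by its brightest probe, up to 4 genes per list and comparison that passed, by size, and the 5 genes most correlated with each receptor over 30 arrays. List genes named that did not pass, and further marker genes, were chosen after their values were seen. Among the time arrays, same-numbered replicates did not deviate together (mean residual r of -0.118 to 0.031 against -0.050 for different numbers). The labels do not tie these numbers to dogs, so this cannot tell whether arrays share a dog. Alternatives covered the background, normalisation, filter, dye, slide, replicate block and arrays left out. Probe sequences and coordinates were not used here, and a few list and correlated genes are not reported here.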

Additional observations from a re-analysis of the deposited data

Results flagged for a closer look

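In 56 groups of 4 to 10 values of the 6 receptor probes, 3 values lay far from the rest of their group, and chance gives about 1 in 20 groups. MS4A2 had a log2 level of 10.48 in the Cy3 channel of array meat 9/meat 0 replicate 1, against 9.41 to 9.63 in the other meat channels of week 9. PTGDR2 had a log2 level of 6.48 in the same channel, against 7.27 to 7.83 in the others, so MS4A2 was high and PTGDR2 low there. This array has the most probes well above background, and the part of that was not tested. PTGDR2 had a log2 ratio of meat over kibble, before the dye term was taken out, of 0.12 on meat 9/kibble 9 replicate 2, against 0.02 to 0.03 on the other 3 arrays of week 9.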

How the results depend on the processing

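Over 50 settings (15 planned, 30 with 1 array left out and 5 added after the data were seen), no receptor value that passed its test changed sign. The MS4A2 diet difference ran from -1.34 to -1.08 at week 0 and from -1.31 to -1.08 over weeks 3, 6 and 9. The CCR3 change on kibble between weeks 0 and 9 passed in 32 settings. It was -0.659 with no filter, -0.492 with a dye term per slide, -0.641 with the replicate block, -0.616 with a dye term per scan session (added), and -0.816, -0.435, -0.660 and -0.654 without slide 1, 2, 3 or 4 (added), none past the threshold. With 1 array left out it ran from -0.766 to -0.545. With median centring it was -1.01, and with processed signals the PTGDR2 change was -0.697 on kibble. The PTGDR2 change passed in 49 settings on kibble, the exception being the 4 arrays of the comparison alone (-0.447). On meat it passed in 46: it was -0.363 from those 4 arrays alone, -0.356 and -0.358 without slide 1 or 2, and -0.410 to -0.294 with 1 array left out. The replicate block took the receptor probes called on kibble from 2 to 1 and left 1 on meat. List genes called lower on meat over weeks 3, 6 and 9 numbered 22, and 14 with median centring. Between weeks 0 and 9, list genes called higher numbered 5 on meat (0 to 8 over the settings) and 6 on kibble (1 to 9), and those called lower 2 on meat (0 to 5) and 4 on kibble (0 to 9). The cause of these losses was not tested, beyond the fewer arrays where arrays were left out. Among the 6 probes, PTGDR2 and the dimmer FCER1A probe had raw signals nearest to the background.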
